A study of Mus musculus with 12 samples.

Results

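The 35 genes described here encode the CUL4-DDB1 ubiquitin ligase, its substrate receptors and the proteins that switch it on and off, among them the COP9 signalosome. They were taken by gene symbol, and all 35 were present among the 22619 named genes of the deposited expression tables. By role they are 4 genes for the scaffold, adaptor and RING subunits, 3 for DDB1-associated factors, 9 for COP9 signalosome subunits, 4 for neddylation and cullin exchange, and 15 for substrate receptors. RNA was measured in 12 mouse libraries made by Smart-seq2, which copies and amplifies polyadenylated RNA from very small inputs. The control embryos (2 libraries) were wild type C57BL/6 embryos, and the KO embryos (3 libraries) were C57BL/6 embryos with a Dcaf11 knock out. The KO arrest group (3 libraries) carried the same strain and genotype labels and differed from the KO embryos in its title alone, which names an arrest. The control ESC (2 libraries) were wild type embryonic stem cells of strain 129Sv, and the KD ESC (2 libraries) were 129Sv embryonic stem cells with a Dcaf11 knock down. The labels do not give the stage of the embryos, how many cells or embryos went into a library, or how Dcaf11 was removed or lowered. They also do not tie the libraries of a group to different animals or dishes, so p-values here measure the spread between libraries, which may be technical.

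CUL4A and CUL4B are cullin scaffolds that hold the RING protein RBX1 and, through the adaptor DDB1, an exchangeable receptor called a DCAF, which chooses the proteins to be marked with ubiquitin. The ligase works while the small protein NEDD8 is attached to the cullin, the COP9 signalosome takes NEDD8 off again, and CAND1 lets a cullin without NEDD8 swap its receptor. In mouse oocytes and early embryos CUL4-DDB1 ligases are known for oocyte survival and the control of inherited proteins, and DCAF11, the product of the gene targeted in this study, is itself a receptor of this ligase.

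The target gene was checked first. Dcaf11 measured 2.82 and 14.3 FPKM in the 2 controls among the embryos, against 3.99, 2.84 and 0.184 FPKM for the KO embryos, with KO arrest at 4.43, 0.422 and 6.02 FPKM. Its ES cell levels were 6.48 and 4.52 FPKM (control) against 1.69 and 1.83 FPKM (KD). Dcaf11 was thus lower in both KD ESC libraries than in both control ESC libraries, with a log2 fold change of -1.22 ± 0.21 (SE, adjusted p = 0.0521), while the knock out and control embryos overlapped and the log2 fold changes were -1.43 ± 0.95 (SE, adjusted p = 0.411) for the KO embryos and -1.02 ± 0.95 (SE, adjusted p = 0.463) for KO arrest. Between KO arrest and the KO embryos it was 0.42 ± 0.85 (SE, adjusted p = 0.8), between the control embryos and control ESC 0.25 ± 0.93 (SE, adjusted p = 0.842), and the difference of the embryo and ES cell effects was -0.21 ± 1.26 (SE, adjusted p = 0.956). The labels do not say which exons were deleted, so this RNA level is no check of the knock out labels, and the groups are named by their labels throughout. Values are FPKM (fragments per kilobase of transcript, scaled to library size), which carry no read number, so no counting interval can be given. The read coverage that corresponds to 1 FPKM, a measure of relative depth, ran from 0.373 to 2.01 over the libraries, and genes at 1 FPKM or more numbered 6573 to 12061. That coverage was 1.22 to 2.01 in the control embryos, 0.585 to 1.32 in the KO embryos and 0.373 to 0.659 in KO arrest. It was highest in control embryo 1, and KO arrest did not overlap the controls. The part of depth in the results was not tested. Control embryo 1 had the fewest genes, and its log2 values correlated with those of control embryo 2 at r = 0.812 across genes, against 0.915 to 0.981 between libraries within the other groups. Members called between knock out and control embryos are therefore given also without control embryo 1. For the gene lists outside the members and for some calls between the wild type groups no such value is given. The 11 oocyte and 2-cell stage markers summed to 22983 to 33887 FPKM in the control embryos, 7719 to 11392 in the KO embryos and 595 to 845 in KO arrest, with Tcstv1 and Tcstv3 listed at 0 in every library. The 8 ES cell markers summed to 2032 to 2525 FPKM in the ES cell libraries and 20.8 to 153 in the embryo libraries. The 5 listed blood markers summed to 63.9 to 130 FPKM in the control embryos, 223 to 335 in the KO embryos and 0 in KO arrest and in the ES cells, with Hba-a1 at 0 throughout. The 8 fibroblast markers summed to 17.2 to 62.1, 55.4 to 89.5 and 0.0871 to 2.90 FPKM in the 3 embryo groups, with 5 of the 8 at 0 in every KO arrest library, and the 7 cumulus and granulosa markers to 12.8 to 17.1, 1.21 to 3.39 and 0 to 2.82. In the control and KD ESC the oocyte and 2-cell stage markers summed to 24.9 to 33.8 and 4.90 to 5.72 FPKM. The fibroblast markers summed there to 77.9 to 78.9 and 47.8 to 52.9 FPKM. The cumulus and granulosa markers reached 33.1 to 36.4 and 21.0 to 22.2 FPKM, above every embryo library. Marker sums thus move with the embryo groups, and those of these lists with the ES cell groups too. Their part in the results below was not tested. In whole-sample RNA, fewer cells of a type and less RNA per cell cannot be told apart.

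Promoter sequence is shown for 5 of the 11 members called in KO arrest: Gps1, Cops6, Cops4 and Ube2m rose and Cul4b fell there. The calls of Cops4 and Cul4b were less firm than the other 3, as given below. Nedd8, Dcaf13 and Cops5, also called there, are among those not shown. The stretches come from the RefSeq promoter table (build GRCm38.p6), are written 5′ to 3′ on the gene's strand, end before the first annotated exon base and leave out any exon of a neighbouring gene. Capitals mark a GC box (GGGCGG) or a CCAAT box (CCAAT) on either strand.
Gps1, chr11:120784208-120784269, plus strand: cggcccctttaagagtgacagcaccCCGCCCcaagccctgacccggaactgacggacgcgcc
Cops6, chr5:138160852-138161070, plus strand: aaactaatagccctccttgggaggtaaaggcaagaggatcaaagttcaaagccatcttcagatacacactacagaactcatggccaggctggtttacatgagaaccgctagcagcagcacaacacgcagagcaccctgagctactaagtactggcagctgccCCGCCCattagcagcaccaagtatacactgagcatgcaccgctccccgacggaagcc
Cops4, chr5:100518059-100518308, plus strand: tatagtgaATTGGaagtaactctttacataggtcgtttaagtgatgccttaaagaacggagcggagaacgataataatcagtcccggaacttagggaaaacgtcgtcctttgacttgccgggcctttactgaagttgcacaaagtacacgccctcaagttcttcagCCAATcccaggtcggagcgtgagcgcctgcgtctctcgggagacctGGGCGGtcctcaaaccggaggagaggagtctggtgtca
Ube2m, chr7:13038276-13038525, minus strand: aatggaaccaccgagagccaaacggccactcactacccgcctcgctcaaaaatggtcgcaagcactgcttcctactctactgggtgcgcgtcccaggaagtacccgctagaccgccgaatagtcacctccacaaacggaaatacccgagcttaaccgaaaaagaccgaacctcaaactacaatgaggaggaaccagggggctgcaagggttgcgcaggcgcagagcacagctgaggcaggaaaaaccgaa
Cul4b, chrX:38576197-38576446, minus strand: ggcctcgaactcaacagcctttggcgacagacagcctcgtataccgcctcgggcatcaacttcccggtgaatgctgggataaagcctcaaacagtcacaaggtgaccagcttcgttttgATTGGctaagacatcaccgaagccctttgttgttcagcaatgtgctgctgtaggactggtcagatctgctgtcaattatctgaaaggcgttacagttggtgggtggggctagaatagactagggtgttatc
The Gps1 stretch is only 62 bases long, since an exon of the neighbouring gene Rfng lies just upstream, and it holds 1 GC box match. Cops6 also holds 1 GC box match, Cops4 holds 1 GC box and 2 CCAAT box matches, Cul4b holds 1 CCAAT box match, and the Ube2m stretch holds neither. Another RefSeq window of Ube2m does hold the GC box letters. RefSeq promoter windows (250 bases before to 50 after a start) were found for 32 of the 35 members, as 39 windows. None was found for Ddb2, Cops5 and Dcaf13. The letters below were searched only in the 250 bases before the start. The GC box letters occurred in 66.7% of the member windows and in 32.7% of all 32851 windows, the CCAAT box in 25.6% and 33.8%, the ETS core (CCGGAAG) in 23.1% and 6.91%, and the TATA box (TATAAA) in 0 of 39 and 12.4%, each on either strand. The mean GC content was 62.4% in the member windows and 53.2% in all windows. The matches describe the letters of these windows only.

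Nearly all 35 genes were expressed in every kind of sample. Between 31 and 35 members reached 1 FPKM in 11 of the libraries, and 24 did so in control embryo 1. Control embryo 1 listed 6 members at 0 (Ddb2, Det1, Cops5, Ube2m, Dcaf15 and Ambra1), control embryo 2 listed Dcaf15 at 0, and Ddb2 was listed at 0 in KO embryo 1 and KO arrest 3. By group mean, the most abundant member was Dcun1d1 in the control embryos (198 FPKM) and Nedd8 in the KO embryos (294 FPKM), KO arrest (729 FPKM), control ESC (91.5 FPKM) and KD ESC (140.6 FPKM). The median over the members' group means was 11.1 FPKM in the control embryos, 14.7 in the KO embryos, 9.71 in KO arrest, 17.04 in the control ESC and 15.9 in the KD ESC. Together the members made up 0.175% and 0.270% of the summed FPKM of the 2 control embryos, 0.286% to 0.309% in the KO embryos, 0.275% to 0.356% in KO arrest and 0.221% to 0.230% in the ES cells.

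**Figure D1:**
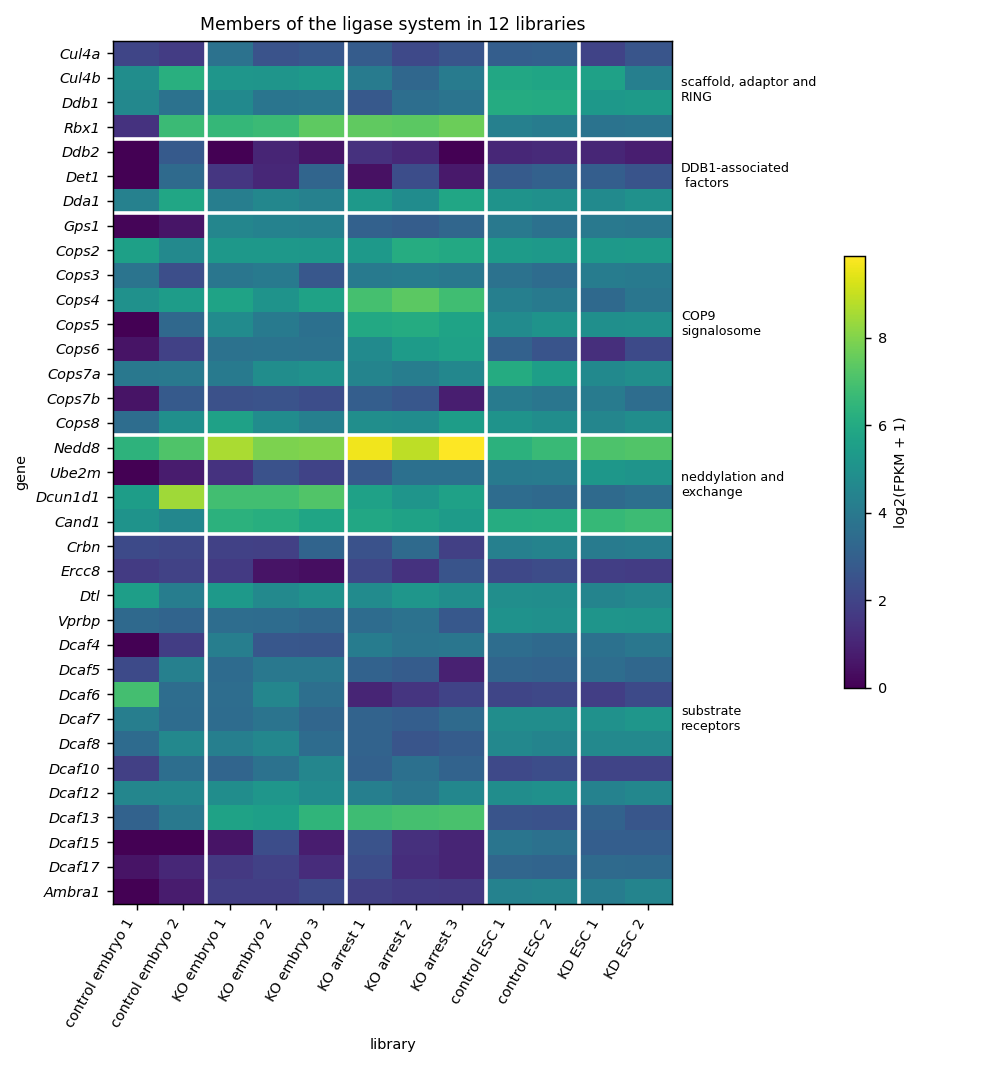
FPKM of the 35 members on a log2(FPKM + 1) colour scale, with 1 row per gene grouped by role and 1 column per library grouped by the 5 sample groups. Gps1 is dark (low) in both control embryos (0.111 and 0.465 FPKM) and lighter in every other library (6.49 FPKM or more), while Nedd8 is bright throughout and brightest in KO arrest.

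Each comparison was fitted with limma on log2(FPKM + 1) over every gene that reached 1 FPKM in 2 or more of the fitted libraries, and genes with a Benjamini-Hochberg adjusted p below 0.05 were called. A fold change on this scale understates the change of genes with low FPKM. The KO embryo and KO arrest comparisons share the 2 control embryos, so their values are given side by side and are not independent of each other.

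In the KO embryos against the control embryos 3 of the 35 members were called, all higher (Gps1, Cops6 and Dcaf13), a share of 8.57% where 6.36% of the 11795 genes tested were called (4.86% higher and 1.5% lower). The members' median log2 fold change was 0.52 against 0.31 over all genes, and 28 of the 35 (80%) were positive, where 60.8% of all genes were. Without control embryo 1 the medians were 0.39 for the members and 0.02 for all genes, with 2 members called and 26 positive. All 3 KO libraries lay above both control libraries for 14 members and below them for 1 member, where 24.2% and 12.1% of all genes did so. In KO arrest against the control embryos 11 members were called, 9 higher and 2 lower, a share of 31.4% where 25.2% of all genes were called (16.4% higher and 8.87% lower), and the medians were 0.56 and 0.45. Leaving out control embryo 1 gave medians of 0.42 and 0.16, with 7 members called higher and 2 lower, and 8 of these 9 were among the 11. The groups did not overlap for 15 members that lay higher and 4 that lay lower, where 31.3% and 17.5% of all genes did so. Between KO arrest and the KO embryos only Cops4 was called, a share of 2.86% where 8.58% of all genes were called (4.93% higher and 3.65% lower), with medians of -0.06 and 0.07. At an unadjusted p under 0.05 that comparison held 11 members and 3101 genes, and 8 members lay wholly higher and 8 wholly lower, where 19.4% and 17.7% of all genes did so. The fit behind it also takes its spread from the control embryos. With library weights 9 members were called between the 2 knock out groups, 5 higher and 4 lower, where 21.7% of all genes were called. In the KD ESC against the control ESC 4 members were called, 2 higher (Ube2m and Cand1) and 2 lower (Ddb1 and Dcaf15), a share of 11.4% where 6.23% of 12264 genes were called (2.59% higher and 3.64% lower), with medians of -0.14 and -0.09. There 11 members lay wholly higher and 15 wholly lower, where 25.3% and 37.1% of all genes did so. In each of these comparisons the members' share of calls differs from that of all genes by only a few members.

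The balance of calls depends on how libraries are scaled. With median-of-ratios scaling the all-gene median of the log2 fold change went from 0.31 to -0.05 in the KO embryos and from 0.45 to 0.02 in KO arrest, and that of the members from 0.52 to -0.01 and from 0.56 to -0.04. The positive members then numbered 17 of 35 in both, and with the length trend removed (described below) 20 in the KO embryos and 21 in KO arrest. In KO arrest median-of-ratios scaling gave 7 members called higher and 4 lower, since Rbx1 and Cops4 lost their calls and Dcun1d1 (-2.22, adjusted p = 0.0174) and Dcaf8 (-1.83, adjusted p = 0.0295) were called lower. Higher genes then made up 35.3% of all calls in the KO embryos (76.4% as deposited) and 45.1% in KO arrest (64.9% as deposited), and in the KD ESC 55.1% (41.6% as deposited). With TPM (the authors' other unit, scaled to a fixed total per library) higher genes were 50% of the calls in KO arrest and 29.0% of those between KO arrest and the KO embryos (57.4% as deposited). Total FPKM per library was 340900 and 396300 for the control embryos and 361500 to 395600 for the KO embryos, but 485200 to 560700 for KO arrest. With TPM the members' median was 0.17 in KO arrest against the controls (0.10 over all genes). Against the KO embryos it was -0.49 (-0.28 over all genes). No called member of these 4 comparisons changed sign under either scaling, and the members whose call ended are named with their values below. Testing with no filter on low genes ended the calls of Cops6 in the KO embryos, of Cul4b, Rbx1, Cops5, Dcaf4 and Dcaf6 in KO arrest and of all 4 members in the KD ESC. Library weights ended those of Cops6 and Dcaf13 in the KO embryos and of Cul4b, Rbx1 and Dcaf4 in KO arrest, and a pseudocount of 0.1 ended Rbx1 in KO arrest and Cand1 in the KD ESC. The plot of fold changes by role shows the members of all 4 comparisons.

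**Figure D2:**
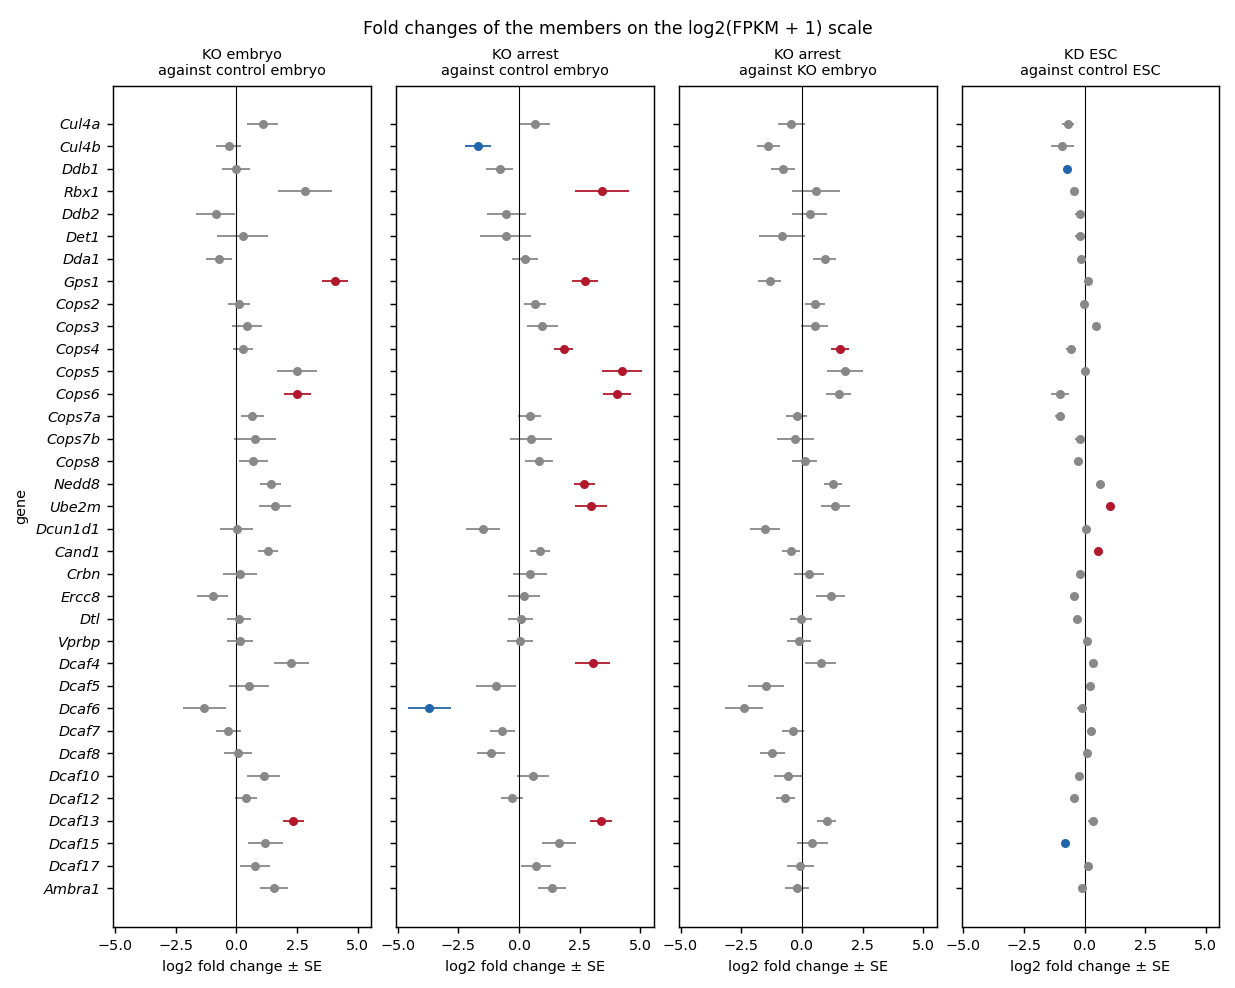
Log2 fold change (log2(FPKM + 1) scale) of each member in the 4 Dcaf11 comparisons, with points for the limma estimate, bars for ± 1 standard error, and colour for an adjusted p under 0.05 (red higher, blue lower, grey not called). Gps1, Cops6 and Dcaf13 are the red points for the KO embryos, and the KD ESC panel has the shortest bars.

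The scaffold, adaptor and RING genes did not move together. Cul4b, the X-linked cullin scaffold (chrX:35884798-35929373, minus strand, build mm9), fell in KO arrest. Cul4b measured 27.4 and 74.3 FPKM in the 2 control embryos, against 35.2, 33.9 and 38.98 FPKM for the KO embryos, with KO arrest at 16.1, 8.77 and 16.2 FPKM. KO arrest lay below every other embryo library. The log2 fold change against the control embryos was -1.70 ± 0.52 (SE, adjusted p = 0.0373), against -0.32 ± 0.52 (SE, adjusted p = 0.764) in the KO embryos. The call ended with 1 library left out in 7 of 8 cases (adjusted p up to 0.154) and remained without control embryo 1 (-2.41, adjusted p = 0.0104). Rbx1, which recruits the ubiquitin-carrying enzyme (chr15:81296746-81306799, plus strand), was read at 1.69 and 105 FPKM for the control embryos, against 94.98, 105 and 168 for the KO embryos, with KO arrest at 174, 163 and 197. Control embryo 1 alone was low, while control embryo 2 lay inside the range of the KO embryos. The KO arrest call, a log2 fold change of 3.41 ± 1.12 (SE, adjusted p = 0.0473), therefore rested on that library: it was 0.76 (adjusted p = 0.238) without it and 6.05 (adjusted p = 5.04e-05) without control embryo 2. It was also lost without each knock out library in turn (adjusted p up to 0.11) and under 7 of the 8 other settings tried, among them TPM (3.10, adjusted p = 0.0922) and median-of-ratios scaling (2.80, adjusted p = 0.0657). The KO embryo value was 2.83 ± 1.12 (SE, adjusted p = 0.162). Cul4a, the other cullin scaffold, stood at 3.17 and 2.39 FPKM for the control embryos, against 12.1, 4.76 and 5.60 for the KO embryos, with KO arrest at 6.24, 3.57 and 5.07, so that every knock out library lay above both controls. Neither log2 fold change was called (1.08 ± 0.62 SE, adjusted p = 0.338 and 0.64 ± 0.62 SE, adjusted p = 0.479). Ddb1, the adaptor, was at 23.2 and 12.2 FPKM for the control embryos, against 24.9, 13.3 and 14 for the KO embryos, with KO arrest at 5.78, 10.7 and 12.7. Each knock out group overlapped the controls, and Ddb1 was not called there (-0.01 ± 0.56 SE, adjusted p = 0.997 and -0.80 ± 0.56 SE, adjusted p = 0.323). KO arrest lay below every KO embryo, which was not called either (-0.79 ± 0.50 SE, adjusted p = 0.354).

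In the ES cells Ddb1 (chr19:10680115-10704311, plus strand) fell. It stood at 65.6 and 63.6 FPKM for the control ESC against 36.99 and 40.4 for the KD ESC, without overlap, a log2 fold change of -0.73 ± 0.09 (SE, adjusted p = 0.0352). That call ended without control ESC 1 (adjusted p = 0.203), control ESC 2 (adjusted p = 0.187) or KD ESC 1 (adjusted p = 0.0574). The other core genes were lower by mean in the KD ESC and not called. Cul4a stood at 6.63 and 7.07 FPKM for the control ESC against 2.97 and 5.07 for the KD ESC (-0.68 ± 0.25 SE, adjusted p = 0.161). Cul4b was at 59.9 and 54.7 FPKM (control) against 48.6 and 18.2 FPKM (KD), and its 2 KD libraries differed by more than the group means did (-0.92 ± 0.47 SE, adjusted p = 0.27). Rbx1 was at 18.5 and 16.8 FPKM (control) against 12.5 and 13.1 FPKM (KD) (-0.43 ± 0.11 SE, adjusted p = 0.0933). All 4 core genes lay lower in both KD ESC libraries than in both control ESC libraries, a separation that 37.1% of all genes showed.

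The 3 DDB1-associated factors were not called in any comparison of Dcaf11 knock out or knock down with its controls. Ddb2, a receptor that recognises ultraviolet damage in DNA, was the least abundant of the 3, at 0 and 5.86 FPKM for the control embryos, against 0, 1.03 and 0.489 for the KO embryos, with KO arrest at 1.68, 1.21 and 0. Its ES cell levels were 1.16 and 1.24 FPKM (control) against 1.08 and 0.773 FPKM (KD). Its value includes an uncertain part, since its gene overlaps Acp2 on the other strand by 2517 bases and the labels do not say whether reads were counted by strand. Det1, a partner of DDB1 in a complex with the receptor COP1, ranged widely within the embryo groups, from 0 to 9.69 FPKM in the control embryos, 1.14 to 8.40 in the KO embryos and 0.371 to 4.02 in KO arrest. Det1 in the ES cells stood at 6.21 and 7.41 FPKM (control) against 6.65 and 4.96 FPKM (KD). Dda1, a small DDB1-binding protein, was at 19.4 and 56.2 FPKM for the control embryos, against 17.8, 22.9 and 19.4 for the KO embryos, with KO arrest at 39.03, 27.1 and 55.9, with log2 fold changes of -0.71 ± 0.54 (SE, adjusted p = 0.482) and 0.23 ± 0.54 (SE, adjusted p = 0.781). In the ES cells it stood at 32.1 and 29.9 FPKM for the control ESC against 25.5 and 30.9 for the KD ESC.

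Of the 9 COP9 signalosome genes 2 rose in the KO embryos (22.2%, where 4.86% of all genes were called higher). In KO arrest 4 rose (44.4%, where 16.4% of all genes were called higher). None was called in the KD ESC, where 4 of the 9 and 3706 of all 12264 genes had an unadjusted p under 0.05. In KO arrest the share called was 50% both for the scaffold, adaptor and RING genes and for the neddylation and exchange genes, which number 4 each. As deposited all 9 had a positive log2 fold change in both comparisons, where 60.8% and 60.4% of all genes did. With median-of-ratios scaling 5 of the 9 were positive in the KO embryos (not Cops2, Cops3, Cops4 or Cops7a) and 7 in KO arrest (not Cops2 or Cops7a). With the length trend removed 7 and 8 were positive, and without control embryo 1 it was 8 in each. Summed over the 9 genes, they reached 117.5 and 133 FPKM for the control embryos, against 232, 193 and 188 FPKM for the KO embryos, with KO arrest at 328, 412 and 364.5 FPKM. The 3 groups do not overlap in this sum, in which Cops4 was the largest part of every KO arrest library, and no test was made of it. The sum is not scaled to an equal library total, and total FPKM was itself highest in KO arrest. In the control and KD ESC the sum was 234 and 201 FPKM against 173 and 182 FPKM.

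Gps1, which encodes the largest subunit (chr11:120645586-120650416, plus strand), rose in both groups of knock out embryos. Gps1 measured 0.111 and 0.465 FPKM in the 2 control embryos, against 22.2, 19.7 and 18.5 FPKM for the KO embryos, with KO arrest at 7.38, 6.49 and 8.51 FPKM. Both controls were far below every knock out library, and the KO embryos lay above KO arrest. The log2 fold change was 4.05 ± 0.54 (SE, adjusted p = 0.005) in the KO embryos and 2.72 ± 0.54 (SE, adjusted p = 0.00527) in KO arrest, and both were called under every alternative run, including without control embryo 1 (3.85, adjusted p = 0.00969, and 2.52, adjusted p = 0.0143). Between KO arrest and the KO embryos the log2 fold change was -1.32 ± 0.48 (SE, adjusted p = 0.113) and was not called. Both control embryos were themselves low beside the ES cells, where Gps1 stood at 14.8 and 11.9 FPKM for the control ESC against 14.9 and 14.1 for the KD ESC (0.12 ± 0.14 SE, adjusted p = 0.607).

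Cops6, the partner of the catalytic subunit (chr5:138602330-138605212, plus strand), also rose in both. Cops6 measured 0.440 and 2.78 FPKM in the 2 control embryos, against 12.3, 12.4 and 12.2 FPKM for the KO embryos, with KO arrest at 25.6, 41.6 and 48.5 FPKM. The KO embryos lay close together and above both controls, and KO arrest lay higher still. Log2 fold changes were 2.51 ± 0.57 (SE, adjusted p = 0.0318) and 4.04 ± 0.57 (SE, adjusted p = 0.001), and that between KO arrest and the KO embryos was 1.52 ± 0.51 (SE, adjusted p = 0.0922). The KO arrest call held under every alternative run (3.34, adjusted p = 0.00332 without control embryo 1). The KO embryo call ended without control embryo 1 (1.82, adjusted p = 0.0865), without each knock out library except KO arrest 1 (adjusted p up to 0.101), and with median-of-ratios scaling (2.11, adjusted p = 0.0547). Cops6 in the ES cells was lower by mean in the KD ESC and not called, at 7.25 and 4.85 FPKM for the control ESC against 1.52 and 3.70 for the KD ESC (-1.01 ± 0.38 SE, adjusted p = 0.164).

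Cops5 encodes the metalloprotease that cuts NEDD8 from cullins (chr1:10014912-10027979, minus strand). Cops5 measured 0 and 9.09 FPKM in the 2 control embryos, against 25.7, 15.9 and 11.5 FPKM for the KO embryos, with KO arrest at 61.5, 66.6 and 51.1 FPKM. Every knock out library lay above both controls, and every KO arrest library above every KO embryo. Cops5 rose in KO arrest (4.25 ± 0.82 SE, adjusted p = 0.00487) and kept its call without control embryo 1, the library listed at 0 (2.58, adjusted p = 0.00985). With no filter on low genes its adjusted p was 0.0515, and the KO embryo value was not called (2.49 ± 0.82 SE, adjusted p = 0.101). In the ES cells it stood at 25.98 and 32.7 FPKM (control) against 28.7 and 29.7 FPKM (KD), a log2 fold change of 0.00 ± 0.14 (SE, adjusted p = 0.988) with a 95% interval of -0.37 to 0.38.

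Cops4 (chr5:100947328-100976821, plus strand) was the only member called between the 2 knock out groups. Cops4 measured 31.1 and 42.7 FPKM in the 2 control embryos, against 51.02, 32.8 and 50.96 FPKM for the KO embryos, with KO arrest at 123, 164 and 115 FPKM. KO arrest lay above every other embryo library, while the KO embryos and controls overlapped. The log2 fold change of KO arrest was 1.83 ± 0.41 (SE, adjusted p = 0.00895) against the control embryos and 1.57 ± 0.36 (SE, adjusted p = 0.0263) against the KO embryos, and that of the KO embryos was 0.27 ± 0.41 (SE, adjusted p = 0.746). Without control embryo 1 the first was 1.61 (adjusted p = 0.0319). It ended with median-of-ratios scaling (1.11, adjusted p = 0.0787) and with the length trend removed (1.19, adjusted p = 0.0528). The call against the KO embryos ended without each of the 6 knock out libraries in turn (adjusted p up to 0.104) and with TPM (1.14, adjusted p = 0.078), and without control embryo 1 it remained (1.57, adjusted p = 0.0102). Cops4 in the ES cells was at 18.2 and 15.9 FPKM (control) against 9.47 and 13.5 FPKM (KD) (-0.55 ± 0.20 SE, adjusted p = 0.159).

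**Figure D3:**
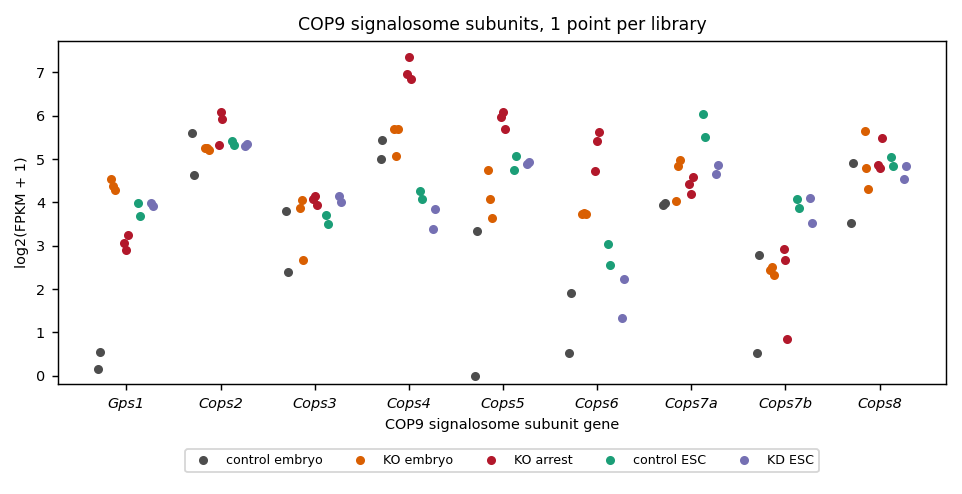
Expression of the 9 COP9 signalosome genes as log2(FPKM + 1), with 1 point per library coloured by group. Gps1, Cops5 and Cops6 separate the control embryos from all knock out embryos, Cops4 separates KO arrest from the other embryos, and Cops2, Cops3, Cops7b and Cops8 overlap between the control and KO embryos.

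The remaining COP9 genes were not called between knock out and control embryos or between the 2 knock out groups. Cops7a and Cops7b encode alternative versions of the same subunit, and Cops7a was the more abundant in all 12 libraries. Cops7a stood at 14.3 and 14.9 FPKM for the control embryos, against 15.3, 27.8 and 30.5 for the KO embryos, with KO arrest at 20.6, 17.3 and 22.9, each knock out library above both controls. It was lower in both KD ESC libraries (24.4 and 28.3 FPKM) than in both control ESC libraries (65.3 and 44.7 FPKM), with a log2 fold change of -1.01 ± 0.21 (SE, adjusted p = 0.0655) that was not called. Cops7b stood at 0.434 and 5.90 FPKM for the control embryos, against 4.41, 4.69 and 4.01 for the KO embryos, with KO arrest at 6.61, 5.39 and 0.784, and the groups overlap. Its ES cell levels were 16.02 and 13.7 FPKM (control) against 16.1 and 10.5 FPKM (KD). The log2 ratio of Cops7b to Cops7a was -2.31 ± 1.56 in the control embryos (SD, n = 2), -2.19 ± 0.55 in the KO embryos (n = 3), -2.25 ± 1.29 in KO arrest (n = 3), -1.80 ± 0.23 in the control ESC (n = 2) and -0.96 ± 0.55 in the KD ESC (n = 2). These ratios differ by less than their spread among the embryos. Cops3 was at 12.96 and 4.23 FPKM for the control embryos, against 13.6, 15.5 and 5.33 for the KO embryos, with KO arrest at 15.9, 16.7 and 14.5. Its ES cell levels were 11.99 and 10.3 FPKM (control) against 16.7 and 15.1 FPKM (KD). It lay higher in both KD ESC libraries than in both control ESC libraries (0.47 ± 0.13 SE, adjusted p = 0.104). Cops2, the subunit that grips the cullin end near RBX1, ranged from 23.8 to 67.0 FPKM over the embryo libraries and from 38.7 to 42.1 over the ES cells, and Cops8 from 10.5 to 49.5 and from 22.2 to 32.1.

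Of the 4 neddylation and exchange genes, 2 rose in KO arrest, where 16.4% of all genes were called higher, and 2 rose in the KD ESC, where 2.59% were. Both KD ESC calls ended with no filter on low genes and without single libraries. Nedd8, the modifier itself (chr14:56281104-56290743, minus strand), rose in KO arrest. Nedd8 measured 81.8 and 141 FPKM in the 2 control embryos, against 386, 241 and 256 FPKM for the KO embryos, with KO arrest at 795, 465 and 928 FPKM. The 3 groups do not overlap, with KO arrest highest and the controls lowest. Its log2 fold change was 2.69 ± 0.42 (SE, adjusted p = 0.00175) in KO arrest, 1.41 ± 0.42 (SE, adjusted p = 0.0749) in the KO embryos and 1.28 ± 0.38 (SE, adjusted p = 0.0624) between them, the first of these called under every alternative run (2.30, adjusted p = 0.00931 without control embryo 1). With the length trend removed the called value was 1.38 (adjusted p = 0.0235). Nedd8 in the ES cells was at 80.3 and 103 FPKM for the control ESC against 137 and 144 for the KD ESC (0.62 ± 0.14 SE, adjusted p = 0.0711).

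Ube2m, the enzyme that carries NEDD8 to cullins (chr7:13620469-13623624, minus strand), rose in KO arrest and in the KD ESC. Ube2m measured 0 and 0.679 FPKM in the 2 control embryos, against 1.71, 4.62 and 2.90 FPKM for the KO embryos, with KO arrest at 5.77, 11.3 and 11.6 FPKM. Each KO arrest library lay above each KO embryo, and each KO embryo above both controls. The log2 fold change was 2.97 ± 0.65 (SE, adjusted p = 0.00861) in KO arrest, called under every alternative run (2.60, adjusted p = 0.0382 without control embryo 1), and 1.59 ± 0.65 (SE, adjusted p = 0.176) in the KO embryos. In the KD ESC Ube2m stood at 35.7 and 33.3 FPKM against 15.7 and 16.3 FPKM in the control ESC (a ratio of means of 2.16), with a log2 fold change of 1.06 ± 0.10 (SE, adjusted p = 0.0285). The ES cell call ended without control ESC 1 (adjusted p = 0.168) or control ESC 2 (adjusted p = 0.155).

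Cand1, which strips receptors from cullins without NEDD8 (chr10:118635868-118677111, minus strand), rose in the KD ESC. It was at 67.8 and 70.6 FPKM for the control ESC against 96.6 and 107 FPKM for the KD ESC, without overlap, a log2 fold change of 0.55 ± 0.09 (SE, adjusted p = 0.0461). The call ended without each of the 4 ES cell libraries in turn (adjusted p up to 0.235). Among the embryos Cand1 stood at 32.2 and 22.4 FPKM for the controls, against 80.3, 71.5 and 55.04 for the KO embryos, with KO arrest at 59.3, 50.03 and 41.1, higher in every knock out library, and was not called (1.31 ± 0.41 SE, adjusted p = 0.085 and 0.86 ± 0.41 SE, adjusted p = 0.15). Dcun1d1, which helps to transfer NEDD8, differed widely between the controls. Dcun1d1 measured 43.6 and 353 FPKM in the 2 control embryos, against 117, 116 and 146 FPKM for the KO embryos, with KO arrest at 49.05, 34.1 and 49.1 FPKM. Control embryo 2 was far above control embryo 1, and neither comparison with the controls was called (0.01 ± 0.70 SE, adjusted p = 1 and -1.50 ± 0.70 SE, adjusted p = 0.142). KO arrest lay below every KO embryo (-1.51 ± 0.62 SE, adjusted p = 0.156), and in the ES cells Dcun1d1 was at 10.3 and 9.47 FPKM (control) against 9.63 and 11.1 FPKM (KD).

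**Figure D4:**
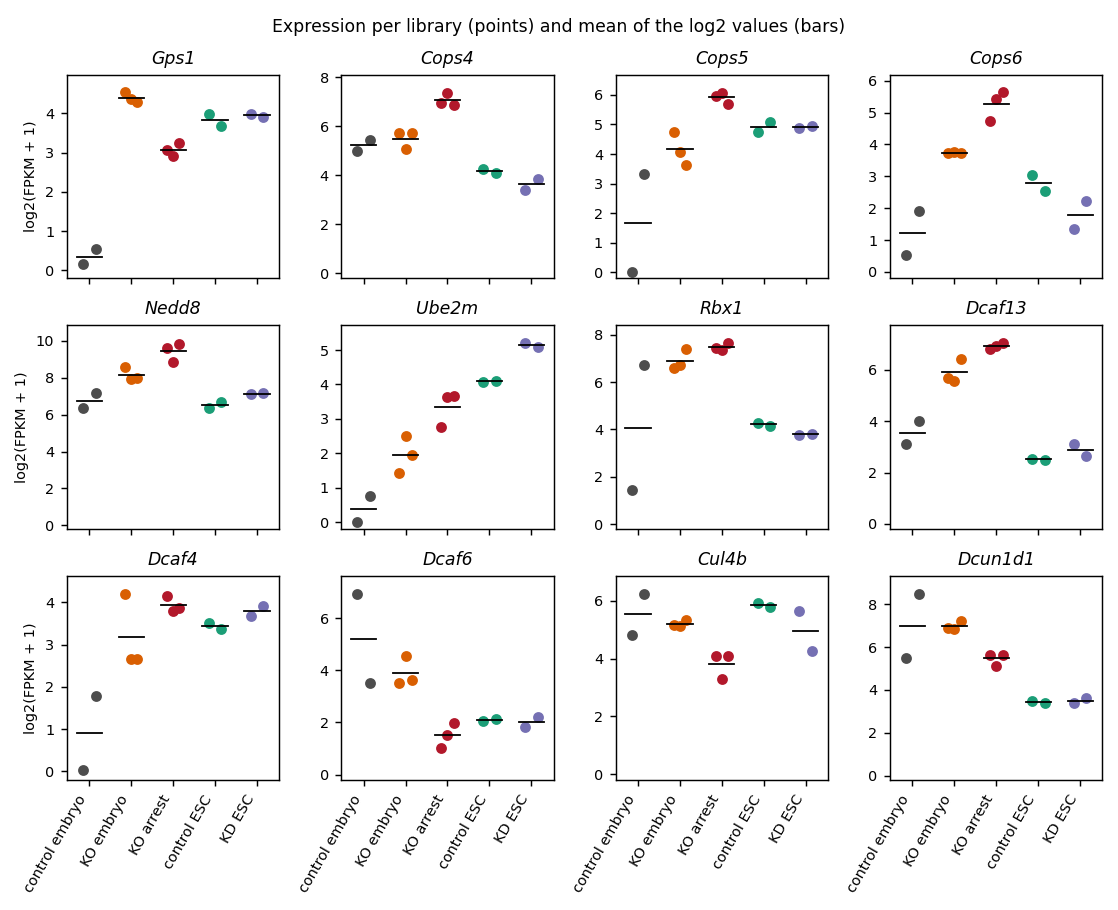
Expression of 12 members as log2(FPKM + 1) in the 5 groups, with 1 point per library and a bar at the mean of the log2 values. Cops6, Ube2m, Nedd8 and Dcaf13 step up from the control embryos to the KO embryos to KO arrest without overlap, while Rbx1 is low in control embryo 1 alone among the embryos.

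Among the 15 substrate receptors, Dcaf13 rose in both groups of knock out embryos. Dcaf13 is a nucleolar receptor needed to process ribosomal RNA (chr15:38944420-38978401, plus strand). Dcaf13 measured 7.58 and 14.9 FPKM in the 2 control embryos, against 50.7, 46.5 and 85.5 FPKM for the KO embryos, with KO arrest at 111, 121 and 129.9 FPKM. The 3 groups do not overlap, and the log2 fold changes were 2.35 ± 0.45 (SE, adjusted p = 0.018) in the KO embryos, 3.37 ± 0.45 (SE, adjusted p = 0.000731) in KO arrest and 1.02 ± 0.40 (SE, adjusted p = 0.137) between them. Without control embryo 1 both calls remained, at 1.90 (adjusted p = 0.0459) and 2.93 (adjusted p = 0.00288). The KO embryo call ended without KO embryo 1 (adjusted p = 0.0667) or KO embryo 3 (adjusted p = 0.0772), and the KO arrest call held under every alternative run. Dcaf13 in the ES cells was at 4.84 and 4.67 FPKM for the control ESC against 7.57 and 5.28 for the KD ESC (0.35 ± 0.20 SE, adjusted p = 0.315).

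Dcaf4, a WD40-repeat receptor (chr12:84861416-84882942, plus strand), rose in KO arrest, and Dcaf6, also known as a coactivator of nuclear hormone receptors (chr1:167259632-167390594, minus strand), fell there. Dcaf4 measured 0.0240 and 2.47 FPKM in the 2 control embryos, against 17.4, 5.32 and 5.28 FPKM for the KO embryos, with KO arrest at 16.7, 13 and 13.6 FPKM. All knock out libraries lay above both controls, and the log2 fold change was 3.03 ± 0.73 (SE, adjusted p = 0.0127) in KO arrest and 2.26 ± 0.73 (SE, adjusted p = 0.0932) in the KO embryos. Without control embryo 1 the KO arrest value was 2.15 (adjusted p = 0.0695), and was not called. Dcaf6 measured 119.8 and 10.4 FPKM in the 2 control embryos, against 10.5, 22.2 and 11.2 FPKM for the KO embryos, with KO arrest at 1.02, 1.87 and 2.98 FPKM. Control embryo 1 stood far above every other library, and control embryo 2 lay just below the KO embryos. KO arrest was lowest throughout, with a log2 fold change of -3.70 ± 0.89 (SE, adjusted p = 0.0126) against the controls, which was -2.00 (adjusted p = 0.0818) without control embryo 1, and of -2.38 ± 0.79 (SE, adjusted p = 0.0897) against the KO embryos. In the ES cells Dcaf4 was at 10.5 and 9.40 FPKM (control) against 11.8 and 14.2 FPKM (KD), and Dcaf6 at 3.12 and 3.42 FPKM (control) against 2.51 and 3.60 FPKM (KD), and neither was called.

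Dcaf15, the receptor that anticancer sulfonamides redirect to splicing factors (chr8:86620971-86628661, minus strand), fell in the KD ESC. It stood at 13.2 and 11.8 FPKM for the control ESC against 6.78 and 6.67 FPKM for the KD ESC, a log2 fold change of -0.81 ± 0.13 (SE, adjusted p = 0.0457). This call ended without each of the 4 libraries in turn (adjusted p up to 0.237), with TPM (-0.82, adjusted p = 0.0567) and with median-of-ratios scaling (-0.73, adjusted p = 0.0507). In the embryos it was listed at 0 in both controls and read at 0.417, 3.98 and 0.712 FPKM in the KO embryos and 4.78, 1.58 and 1.00 in KO arrest, so no fold is given there. Dcaf12, a receptor that reads protein C termini, was lower in both KD ESC (19.7 and 22.9 FPKM) than in both control ESC (27.8 and 30.2 FPKM), and was not called (-0.43 ± 0.12 SE, adjusted p = 0.104). Its embryo values were 21.98 and 22.3 FPKM for the controls, against 27.6, 35.1 and 26.02 for the KO embryos, with KO arrest at 18.1, 13.7 and 22.8.

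Ambra1, a receptor for D-type cyclins and a factor in autophagy, was at 0 and 0.695 FPKM for the control embryos, against 2.51, 2.56 and 3.49 for the KO embryos, with KO arrest at 2.63, 2.24 and 2.12. Every knock out library lay above both controls, with log2 fold changes of 1.56 ± 0.57 (SE, adjusted p = 0.132) and 1.35 ± 0.57 (SE, adjusted p = 0.108) that were not called. Dcaf17, which is needed in spermatogenesis, was at 0.447 and 1.16 FPKM for the control embryos, against 2.13, 2.71 and 1.39 for the KO embryos, with KO arrest at 3.98, 1.43 and 1.00. Crbn, the target of thalidomide, stood at 3.58 and 3.31 FPKM for the control embryos, against 2.70, 2.61 and 7.93 for the KO embryos, with KO arrest at 4.55, 9.68 and 2.66, and its gene overlaps Trnt1 on the other strand by 4230 bases. Crbn overlapped between the embryo groups, Dcaf17 was above both controls in every KO embryo, and neither was called between knock out and control embryos. Vprbp, the receptor DCAF1 that is bound by the HIV protein Vpr and is needed in oocytes, was level over the embryos, at 9.21 and 8.09 FPKM for the controls, against 10.5, 10.2 and 8.68 for the KO embryos, with KO arrest at 10.2, 12.3 and 5.58. Its log2 fold changes were 0.16 ± 0.54 (SE, adjusted p = 0.899) and 0.04 ± 0.54 (SE, adjusted p = 0.961), with 95% intervals of -1.02 to 1.34 and -1.14 to 1.23, so that a log2 fold change of 1 in either direction lies inside both intervals. Dcaf7, a scaffold for DYRK kinases, was at 17.6 and 10.2 FPKM for the control embryos, against 10.3, 12.9 and 8.61 for the KO embryos, with KO arrest at 7.79, 6.63 and 9.62. It overlapped between the controls and the KO embryos. Every KO arrest library lay below both controls, which was not called (-0.69 ± 0.52 SE, adjusted p = 0.353). In the control and KD ESC these 5 receptors stood at 19.8 and 20.9 against 16.5 and 21.1 FPKM (Ambra1), 8.51 and 8.09 against 9.56 and 9.21 FPKM (Dcaf17), 18.4 and 20.3 against 16.2 and 17.1 FPKM (Crbn), 31.7 and 30.3 against 33.9 and 33.2 FPKM (Vprbp) and 27.6 and 27.3 against 30.8 and 35.1 FPKM (Dcaf7). None of the 5 was called in the KD ESC. The last 5 receptors were not called in any comparison as deposited. With median-of-ratios scaling Dcaf8 was called lower in KO arrest, as given above. With the length trend removed Dcaf10 was called higher in the control embryos than in the control ESC (1.51, adjusted p = 0.0485). KO arrest lay below every other embryo library for Dcaf8 and below every KO embryo for Dcaf5. For Ercc8 every KO embryo lay below both controls, while Dtl and Dcaf10 overlapped between the embryo groups. Over the 12 libraries Dtl, which removes the replication licensing factor CDT1, ranged from 17.3 to 45.1 FPKM, Ercc8, which acts in transcription-coupled repair, from 0.289 to 4.89, Dcaf5 from 0.876 to 18.6, Dcaf8 from 4.99 to 24.2 and Dcaf10 from 2.61 to 22.2.

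The 2 wild type groups were compared for the level of each member, with strain and kind of sample differing along with it. The amount of RNA per library is not given by the labels and may differ too. Of the 35 members 3 were higher and 15 lower in the control embryos than in the control ESC, a share of 51.4% where 53.4% of 14447 genes were called (12.6% higher and 40.8% lower), with median log2 fold changes of -0.74 and -1.01. Groups did not overlap for 4 members that lay higher in the embryos and 18 that lay lower, where 19.2% and 55.2% of all genes did so. Higher genes were 23.6% of all calls as deposited, 37.7% with median-of-ratios scaling and 46.0% with the length trend removed, and the medians of all genes moved to -0.42 and -0.19. Among the members 6 were called higher and 7 lower with median-of-ratios scaling, and 5 higher and 8 lower with the length trend removed. Their median turned from -0.74 to 0.23 and 0.06 under these settings, with 19 and 18 of 35 positive in place of 10. Leaving out control embryo 1 gave 5 higher and 12 lower, with a median of -0.74. Ambra1 (-4.04 ± 0.38 SE, adjusted p = 2.46e-05), Ube2m (-3.71 ± 0.48 SE, adjusted p = 0.000155), Gps1 (-3.48 ± 0.33 SE, adjusted p = 2.61e-05) and Dcaf17 (-2.39 ± 0.48 SE, adjusted p = 0.00216) were lower in the embryos under every alternative run, as was Dcaf15, which both control embryos list at 0. Dcun1d1 (3.53 ± 0.73 SE, adjusted p = 0.00258) was higher there under every alternative run. Cops5 (-3.25 ± 0.84 SE, adjusted p = 0.00861) was lower too and was not called without control ESC 2 (-3.09, adjusted p = 0.0506), and Dcaf4 (-2.53 ± 0.65 SE, adjusted p = 0.00801) was not called without control embryo 1 (-1.66, adjusted p = 0.0517).

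The other calls between the wild type groups were less firm. Ddb1 (-1.88 ± 0.46 SE, adjusted p = 0.00661), Cops7a (-1.82 ± 0.38 SE, adjusted p = 0.00278), Cand1 (-1.33 ± 0.31 SE, adjusted p = 0.00471), Vprbp (-1.73 ± 0.38 SE, adjusted p = 0.00329) and Crbn (-2.19 ± 0.57 SE, adjusted p = 0.00897) were lower in the embryos, and with median-of-ratios scaling their log2 fold changes of -0.88, -0.83, -0.33, -0.77 and -1.30 were not called. Crbn was not called without control ESC 2 either (-2.13, adjusted p = 0.0538). Dcaf7 (-0.98 ± 0.36 SE, adjusted p = 0.0438) was lower as deposited and was near 0 with median-of-ratios scaling (0.0033, adjusted p = 1), and its call ended without control embryo 2, without KO embryo 1 and without each ES cell library (adjusted p up to 0.159). Cops6 (-1.57 ± 0.53 SE, adjusted p = 0.0305) and Cops7b (-2.33 ± 0.80 SE, adjusted p = 0.0324) lost their calls without control embryo 1 (-0.88, adjusted p = 0.179, and -1.20, adjusted p = 0.222) and without either control ESC library (adjusted p up to 0.162 and 0.127). Dcaf6 (3.12 ± 0.90 SE, adjusted p = 0.0145), higher in the embryos, was 1.41 (adjusted p = 0.0639) without control embryo 1 and was not called without control ESC 1 or 2 either (adjusted p up to 0.0667). Cops4 (1.06 ± 0.35 SE, adjusted p = 0.0275), also higher there, lost its call without control embryo 2 (0.84, adjusted p = 0.0887) and without either control ESC library (adjusted p up to 0.126). The log2 ratio of Cul4b to Cul4a was 3.62 ± 1.21 in the control embryos (SD, n = 2), 2.22 ± 0.65 in the KO embryos (n = 3), 1.28 ± 0.20 in KO arrest (n = 3), 2.89 ± 0.15 in the control ESC (n = 2) and 2.65 ± 1.40 in the KD ESC (n = 2), so that Cul4b was the more abundant scaffold in every library. No test was made of these ratios.

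Whether the embryos labelled knock out and the ES cells labelled knock down differed from their controls to a different extent was tested as the difference between the 2 log2 fold changes. It was called for 2 members, Gps1 and Cops6, both higher in the embryos, where 2.69% of 14447 genes were called (2.06% higher and 0.623% lower). For Gps1 the difference was 3.93 ± 0.45 (SE, adjusted p = 0.00424), from 4.05 ± 0.54 (SE) in the KO embryos against 0.12 ± 0.14 (SE) in the KD ESC, and it was called under every alternative run. For Cops6 it was 3.53 ± 0.72 (SE, adjusted p = 0.036), from 2.51 ± 0.57 (SE) against -1.01 ± 0.38 (SE), and it lost its call without each library in turn other than the 2 control embryos, KO arrest 1 and KO arrest 3 (adjusted p up to 0.187) and with median-of-ratios scaling (3.05, adjusted p = 0.0646). Without control embryo 1 it was 2.83 (adjusted p = 0.0412). With median-of-ratios scaling higher genes made up 38.8% of all calls of this difference (76.8% as deposited), and 60.4% with the length trend removed. Strain, kind of sample and the way Dcaf11 was targeted differ between these effects and cannot be told apart.

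Most members that rose in KO arrest have short transcripts. Over the 35 members the log2 fold change and the log2 length of the longest transcript (GENCODE vM21, GRCm38) correlated at r = -0.309 in the KO embryos, -0.572 in KO arrest and -0.638 between KO arrest and the KO embryos, against -0.00739 in the KD ESC. These correlations are descriptions over genes that share the same libraries. Nedd8, the shortest called member (824 bases), Ube2m (1472), Dcaf13 (1551), Rbx1 (1675), Cops5 (1698), Cops4 (1755), Cops6 (1787), Gps1 (2000) and Dcaf4 (2008) rose in KO arrest, while Dcaf6 (4110) and Cul4b (3354) fell. After a smooth trend over length was removed from each library across all genes, 9 of the 11 KO arrest calls remained and Rbx1 (2.68, adjusted p = 0.0618) and Cops4 (1.19, adjusted p = 0.0528) did not. The 3 KO embryo calls remained, at 3.78 (adjusted p = 0.00571) for Gps1, 2.25 (adjusted p = 0.0301) for Cops6 and 2.03 (adjusted p = 0.0207) for Dcaf13. Of the 4 KD ESC calls Dcaf15 was lost (-0.72, adjusted p = 0.0522) and Nedd8 was gained (0.81, adjusted p = 0.0455). With that trend removed higher genes were 55.5% of all calls in the KO embryos, 50.5% in KO arrest, 45.1% between KO arrest and the KO embryos and 57.7% in the KD ESC. What makes shorter transcripts higher in these libraries was not tested.

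**Figure D5:**
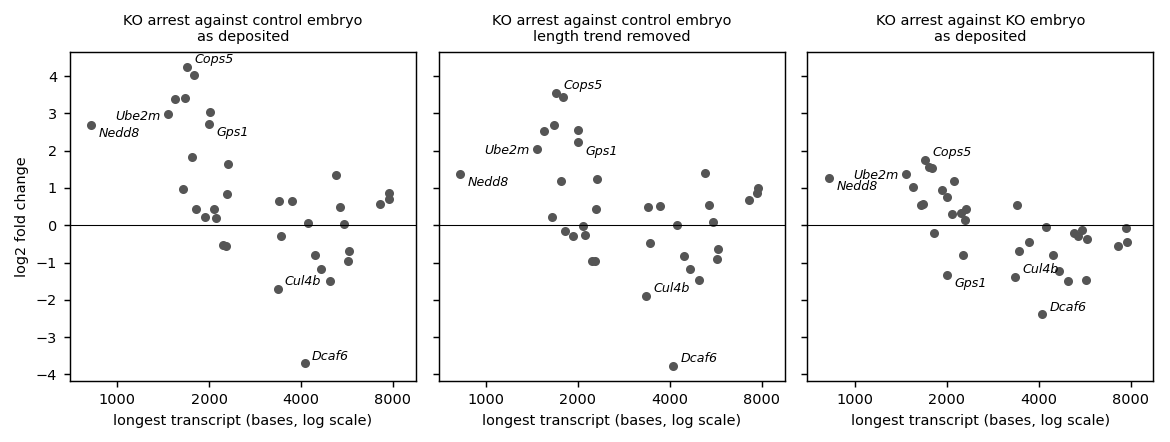
Log2 fold change of each member against the length of its longest annotated transcript in bases (log axis), for KO arrest against the control embryos as deposited and with the length trend removed, and for KO arrest against the KO embryos. Members under 2000 bases lie mostly above 0 in KO arrest, with Nedd8 at 2.69 as deposited and 1.38 with the trend removed, and Dcaf6 is lowest in all 3 panels.

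Genes around the module were counted for comparison. Over all genes 6.36% were called in the KO embryos, 25.2% in KO arrest, 8.58% between these 2 groups and 6.23% in the KD ESC. An unadjusted p under 0.05 was found for 2659 of 11795 genes in the KO embryos and 3706 of 12264 in the KD ESC. Of 21 tested DCAF and other WD40 proteins outside the 35, 2 were higher in the KO embryos, 4 higher and 2 lower in KO arrest, and 1 higher and 1 lower in the KD ESC. Other cullins and neddylation enzymes gave 1 higher of 14 in the KO embryos, 2 higher and 2 lower in KO arrest, and 1 higher of 15 in the KD ESC. Adaptors and receptors of other cullin ligases gave 1 higher of 14 in the KO embryos, 3 higher and 2 lower in KO arrest, and 0 in the KD ESC, where 5 had an unadjusted p under 0.05. Known substrates of CUL4-DDB1 ligases gave 0 of 13 in the KO embryos (2 with an unadjusted p under 0.05), 1 higher and 1 lower in KO arrest, and 4 lower of 15 in the KD ESC. Their median log2 fold changes in KO arrest were 0.61, 0.72, 0.38 and 0.25 in this order, against 0.45 over all genes. Between KO arrest and the KO embryos the 4 lists gave 0 higher and 1 lower, 1 and 1, 1 and 1, and 1 and 0. Rnf7, the RING partner of CUL5 and a paralog of Rbx1, stood at 77.1 and 115 FPKM for the control embryos, against 577, 470.3 and 719.6 for the KO embryos, with KO arrest at 1128, 1237 and 1484. Its log2 fold changes were 2.61 ± 0.35 (SE, adjusted p = 0.005) and 3.74 ± 0.35 (SE, adjusted p = 0.00018), without overlap between the groups. Tceb2, the elongin B adaptor, rose likewise (1.72 ± 0.36 SE, adjusted p = 0.0237 and 2.75 ± 0.36 SE, adjusted p = 0.000685), as did the histone chaperone Rbbp4 in the KO embryos (3.11 ± 0.56 SE, adjusted p = 0.0147) and the elongin C adaptor Tceb1 in KO arrest (3.27 ± 0.43 SE, adjusted p = 0.000674). Cdkn1a, a cell cycle inhibitor degraded through DTL, was higher in KO arrest than in the KO embryos (4.31 ± 0.60 SE, adjusted p = 0.00419), with 150.2, 173 and 323 FPKM against 24.3, 4.69 and 6.55, while Cul1 (-1.69 ± 0.32 SE, adjusted p = 0.0126) and Socs6 (-1.91 ± 0.43 SE, adjusted p = 0.0233) were lower there. In the KD ESC the substrates Etv4 (-2.12 ± 0.17 SE, adjusted p = 0.0249) and Cdt1 (-0.85 ± 0.11 SE, adjusted p = 0.0387) and the WD40 protein Wdr5 (-0.58 ± 0.07 SE, adjusted p = 0.0366) were lower.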

How the data were processed

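The 12 mouse libraries were prepared by Smart-seq2, per the labels' protocols. Per the file headers, the authors deposited 1 table per library with the position, coverage, FPKM and TPM of each gene. The submitters' processing notes list STAR (given there with version 0.6.0), StringTie, DESeq2 and build mm9, without their settings, annotation or roles. FPKM as deposited by the authors was the unit analysed, the deposited TPM values served as an alternative, and the deposited coverage values gave only relative depth. No read counts were used, so DESeq2 was not run. FPKM was summed per gene symbol, which joined 46 to 47 symbols listed at several loci, and unnamed rows (227 to 339 in a library, 0.549% to 1.19% of its FPKM) were left out.

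Genes that reached 1 FPKM in 2 or more fitted libraries were tested on log2(FPKM + 1) with limma 3.58.1 in R 4.3.3 (eBayes with a trend), with Benjamini-Hochberg adjustment over all genes kept. The 8 embryo libraries shared 1 fit (5 residual degrees of freedom), the 4 ES cell libraries another (2), and the contrasts of wild type groups and of effects used all 12 (7). Exact zeros can be failed estimates, so no fold is given against a group listed at 0. The script was tested on simulated data with the means and spread of these libraries. In KO arrest against the control embryos, 13% of genes given a log2 change of 2 were called, and 61% of those given 4. In the KD ESC the shares were 80% and 88%. Each change was given to only 100 of the more abundant genes, of 11795 in the embryos. In the data 2976 genes were called there, which makes the adjustment less strict than in the simulation. These shares are therefore not detection rates of the real comparisons. A gene that is not called may still have changed, and in the simulation more were missed in the embryos. The alternatives were a pseudocount of 0.1, no filter, a 5 FPKM minimum, library weights, TPM, scaling by median of ratios, removal of a lowess trend over transcript length (a length was found for 98.7% of genes and all 35 members), a block on replicate number, and leaving out each library. Same-numbered libraries did not deviate together (r from -0.0995 to 0.0246). In a group of 2 the deviations mirror each other, so this check cannot decide whether the numbers pair libraries. Positions of genes are in mm9 as deposited, and promoter letters are from RefSeq on GRCm38.p6. The symbol Vprbp is matched to RefSeq Dcaf1. Genes that overlap on opposite strands are uncertain, since strand is not stated for the counting: besides Ddb2 and Crbn, Dda1 shares 417 bases with Ano8.

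The members, the 4 other gene lists and the marker lists were chosen with earlier results of these data known. Values in every library are given for each called member and for the 2 members of each role with the smallest p, and of the other lists at most the 3 called genes with the smallest p in a comparison are named, besides Dcaf11.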

Additional observations from a re-analysis of the deposited data

Results flagged for a closer look

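Gps1 and Cops6 stand out because the log2 fold change of the group labelled Dcaf11 knock out against its controls, in embryos, differed from that of the group labelled knock down, in ES cells, by a test of that difference. The KO embryo value minus the KD ESC value was 3.93 for Gps1 (log2 scale, limma adjusted p = 0.00424), with all 3 KO embryos above both control embryos. For Cops6 it was 3.53 (adjusted p = 0.036), also with all 3 KO embryos above both control embryos, and both KD ESC libraries below both control ESC libraries. Both control embryos read Gps1 under 1 FPKM. Strain, kind of sample and the way Dcaf11 was targeted cannot be told apart in this difference.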

How the results depend on the processing

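The number of members called changed with these settings. In the KO embryos it went from 3 to 1 with library weights, and in KO arrest from 11 to 6 with no filter. Between KO arrest and the KO embryos it went from 1 to 2 with no filter or a minimum of 5 FPKM, to 9 with library weights and to 0 with the length trend removed; with TPM the 1 call was Cul4b, lower, in place of Cops4. In the KD ESC it went from 4 to 0 with no filter. For the difference of effects it went from 2 to 1 with a pseudocount of 0.1, median-of-ratios scaling or library weights. With 1 library left out the number ran from 1 to 9 in the KO embryos, 9 to 10 in KO arrest, 0 to 8 between KO arrest and the KO embryos, 0 to 2 in the KD ESC, 11 to 19 between the wild type groups and 1 to 9 for the difference of effects. The highest KO embryo number came without control embryo 2, and the 8 calls between the knock out groups came without either control embryo. The directions that reversed were Dcaf7 between the wild type groups (0.0033 with median-of-ratios scaling and 0.058 with the length trend removed), Rbx1 there (2.50 without control embryo 1 and -2.80 without control embryo 2) and Dcun1d1 in the difference of effects (1.44 without control embryo 2 and -1.55 without control embryo 1). The causes of these changes were not tested.

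With the replicate number as a block, which pairs libraries by number only, members called were 1 in the KO embryos, 9 in KO arrest, 0 between KO arrest and the KO embryos and 0 in the KD ESC, and genes called were 76, 1965, 550 and 26. Calls over all genes differed by over 1.5 times from 750, 2976, 1012 and 764 with no filter (316, 1848, 519 and 24) and with library weights in the embryos (82, 1505 and 2555), from 764 with TPM (431), and from 388 for the difference of effects with a pseudocount of 0.1 (257), no filter (677) and the length trend removed (235). With 1 library left out they ran from 87 to 1817, 1983 to 3636, 285 to 2023 and 13 to 686. A lone library left in a group takes its spread from the other groups. Groups of 2 and 3 limit every comparison, and the files give no read numbers.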
